A study of Mus musculus with 2 samples.

Results

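Cells carrying transcripts of the ciliary margin were examined in single-cell libraries of mouse eye cups at e15.5, the embryonic stage given in days. The control library was Myrf fl/fl, with loxP sites around part of each Myrf allele. The mutant library was Rx>cre Myrf fl/fl, which has the same alleles and a Cre transgene under Rx sequence that acts early across the eye field. Each library pooled 3 eye cups of 1 genotype, with the cornea, lens and optic nerve dissected away before dissociation, so there was 1 library per genotype and no replicate. A cell was chosen by its own measured transcripts: it had UMIs (unique molecular identifiers, 1 per captured transcript) in 2 or more of the margin genes Wfdc1, Otx1, Msx1, Wnt2b and Gja1, and in at least 1 of the eye field genes Rax, Pax6 and Six6. It also had 200 or more genes, 2000 or more UMIs, at most 15% mitochondrial UMIs, no UMI of Mlana, Atoh7, Pou4f2, Crx or Krt14, and fewer than 5 UMIs of Col1a2 plus Col3a1. The rule found 160 cells among 26897 barcodes, of which 74 were in the control and 86 in the mutant library. The levels of the rule genes are therefore a description of how the cells were chosen, and no test was made on them or on any other gene.

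The ciliary margin is the rim of the optic cup, where the neural retina folds over into the retinal pigment epithelium (RPE). It later gives rise to the epithelia of the ciliary body and iris, and the ciliary body secretes the aqueous humour and anchors the zonule fibres that hold the lens. In the embryo the rim lies between sources of Wnt and BMP signals on the outer side and of FGF signals in the neural retina. Margin cells are known for slow division and for a transcription factor set that includes Otx1, Msx1 and Zic1. Wfdc1 encodes a secreted protein, and Gja1 encodes connexin 43, a gap junction channel that couples cells to their neighbours.

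The median margin-marker cell had 15030 UMIs in the control library and 14734 in the mutant one, more than the medians of 9247 and 8739 over all optic cup cells, meaning cells that passed the same limits and exclusions with a UMI of Rax, Pax6 or Six6. Both libraries together had 69 barcodes in common, and none of these was a margin-marker cell. Doublet calls took in 10 of 74 control and 9 of 86 mutant margin-marker cells (13.5% and 10.5%), against 3.61% and 4.02% of optic cup cells. Y-linked transcripts were found in 1 of the 74 control cells and 51 of the 86 mutant cells (1.35% and 59.3%), so the pools differed in sex makeup as well as in genotype. The 69 control and 24 mutant cells with a Xist UMI and no Y-linked UMI were compared separately for some of the genes, and values are given where the direction turned. Myrf itself had 2 UMIs in control margin-marker cells and 0 in mutant ones, so the deletion could not be read in these cells. In RPE cells of the same libraries Myrf stood at 78.2 CPM in the control library and at 31.4 CPM in the mutant one, where CPM is the gene's count in each 1000000 UMIs summed over the cells. Each interval below is a 95% interval of the count alone and says nothing of how embryos vary.

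The chosen cells were not a single cell type, and they are called margin-marker cells here. Gja1 was the margin gene of the rule most often present, found in 63 of the 74 control cells and 71 of the 86 mutant cells. Otx1 was present in 47 and 66 cells, Wfdc1 in 49 and 49, and Msx1 in 14 and 19. The pair Otx1 and Gja1 alone qualified 21 control and 33 mutant cells, and the pair Wfdc1 and Gja1 another 21 and 13. All 4 of Wfdc1, Otx1, Msx1 and Gja1 were found together in 6 control and 10 mutant cells. Wnt2b, a Wnt ligand, had no UMI in any margin-marker cell, which allows a UMI in up to 4.05% of control and 3.49% of mutant cells and sets no limit on cells that express it below detection, while the libraries held 99 and 84 of its UMIs in other cells. Gja1 is also made by many other cell types, and its 8870 and 5836 UMIs over all cells of the libraries far exceeded the 534 and 634 of Wfdc1 and the 339 and 325 of Msx1.

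Markers of other cell types divided the margin-marker cells into sets. The limits for these sets were chosen after the values were seen. A keratin set, with 2 or more UMIs of Krt5 plus Krt15, the keratins of surface epithelia, held 11 control and 8 mutant cells. It carried 24.8% of all margin-marker UMIs in the control library and 11.9% in the mutant one. A vessel or immune set, with 10 or more UMIs of endothelial and immune markers, held 5 and 3 cells, and a Pax2 set, with 2 or more UMIs of that optic stalk transcription factor, held 6 and 11. The remaining 52 control and 64 mutant cells (70.3% and 74.4%) were divided by the rule genes into 16 and 22 cells with 3 or more margin genes and 36 and 42 cells with 2. Cells rich in keratin, endothelial, immune or Pax2 UMIs had thus been taken out of the cells with 3 or more margin genes. Those cells still held 18 control and 24 mutant UMIs of the 8 surface epithelium markers, 66.3 and 69.3 CPM against 22.3 and 19.5 CPM in progenitors, with Krt5 and Trp63 at 0. They held 11 and 11 UMIs of the 6 endothelial markers, with Pecam1 and Emcn at 0, and 2 and 4 of the 6 melanocyte markers, with Pax3 and Sox10 at 0. All 9 lens markers were at 0 in both libraries.

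**Figure D1:**
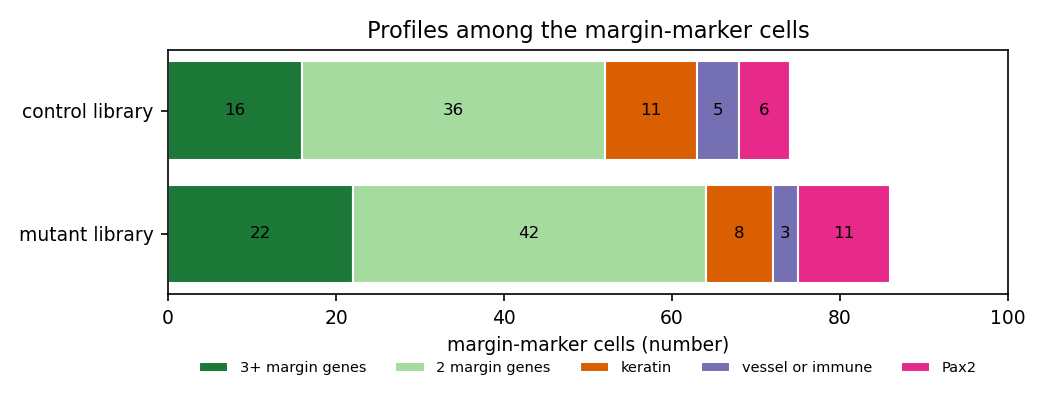
Number of margin-marker cells (horizontal axis) in the control and mutant library (vertical axis), divided by the sets named in the key. The sets with 3 or more and with 2 margin genes, 16 and 36 cells in the control and 22 and 42 in the mutant, made up most of each bar, and the keratin set held 11 control and 8 mutant cells.

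The keratin cells decided which genes stood highest when all margin-marker cells were set beside retinal progenitors, the dividing cells of the neural retina. These were optic cup cells chosen by a UMI of 1 gene that is not reported here and by the absence of any margin gene (1626 control and 2249 mutant cells). Of 10983 genes with 50 or more UMIs in each library, 464 (4.22%) were at least 2-fold higher and 256 (2.33%) at least 2-fold lower in margin-marker cells of both libraries. Among the 12 genes with the largest ratios that held in both libraries, taken from genes with 50 or more UMIs in margin-marker cells of each library, were S100a14, Krt15, Sfn, Krt5, Calml3, Rab25, Wnt6, BC100530, Hspb1, Dsp and Perp, most of them genes of stratified epithelia and of their cell junctions. Margin-marker cells held 2908 control and 1537 mutant UMIs of Krt15, of which 2907 and 1535 lay in the 11 and 8 keratin cells. Without the keratin, vessel or immune, and Pax2 cells, 169 genes were 2-fold higher in both libraries. A count of 0 was taken as 3 UMIs in a ratio, so absent genes could rank behind genes with 1 or 2. The 12 genes with the lowest ratios were Cpne5, Rims1, Dqx1, Lonrf3, Crym, Chac1, Shank2, Espn, Pth2, Pou3f2, Nxph4 and Ngfr. Most of these had 3 or fewer UMIs in margin-marker cells of each library. Espn, which encodes an actin-bundling protein, had 44 and 48 UMIs there and log2 ratios of -2.45 and -2.47. Because of this mixture the cells with 3 or more margin genes are described separately below, as a stricter choice made with the same rule genes.

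**Figure D2:**
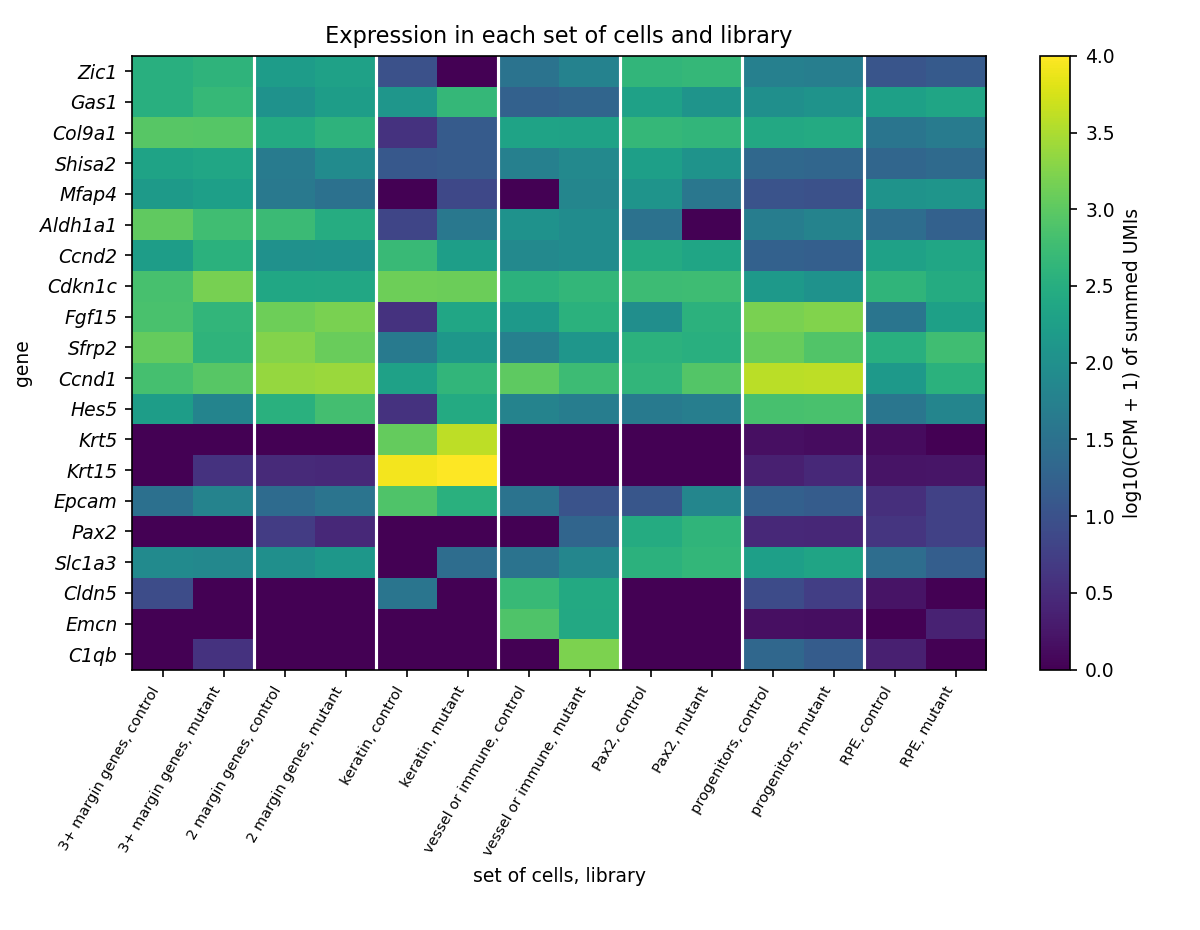
Level of 20 genes (vertical axis) in each set of margin-marker cells, in retinal progenitors and in RPE cells of each library (horizontal axis), as log10(CPM + 1) of summed UMIs (colour). Krt5 and Krt15 were high in the keratin set, Emcn in the vessel or immune set of both libraries and C1qb in that of the mutant, with 0 UMIs in the control, and Zic1, Gas1 and Col9a1 were brighter in the cells with 3 or more margin genes than in progenitors.

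Margin-marker cells took 0.761% (0.598 to 0.955) of all control cells and 0.803% (0.643 to 0.991) of all mutant cells that passed the quality limits. The ratio of mutant to control was 1.06, with a counting interval of 0.764 to 1.46. Of optic cup cells they took 2.57% (2.02 to 3.22) in the control library and 2.23% (1.79 to 2.75) in the mutant one, and the ratio was 0.867 (0.628 to 1.20). After each cell was thinned to 2000 UMIs the rule found 20 control and 22 mutant cells, or 0.206% and 0.205% of all cells. The cells with 3 or more margin genes numbered 16 of 2877 control and 22 of 3858 mutant optic cup cells, which is 0.556% (0.318 to 0.902) and 0.570% (0.358 to 0.862), a ratio of 1.03 (0.514 to 2.09). No difference in share was detectable at these numbers, and the last interval reaches from about 0.514 to 2.09 times the control share. Just outside the rule lay 347 control and 399 mutant optic cup cells with 1 margin gene, and just inside it 55 and 63 cells with 2.

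Cells with 3 or more margin genes were set beside the same retinal progenitors. Of 10781 genes compared, 300 (2.78%) were 2-fold higher and 469 (4.35%) were 2-fold lower in both libraries. Among genes with 50 or more UMIs in these cells of each library, the 12 with the largest ratios were Necab2, Aldh1a1, Shisa2, Crhbp, Tsc22d1, Zic1, Mab21l2, Tmsb4x, Cdkn1c, Fbn2, Gas1 and Col9a1. Other genes named below had larger ratios on fewer UMIs. Among the 12 genes with the lowest ratios, with 50 or more UMIs in progenitors of each library, were Espn, Wdr66, Vldlr, Kdr, Id4, Gpm6b, Fam69c, Rrh, Cox4i2, Pou3f1 and Zfp704. These rest on few UMIs: Wdr66 and Fam69c had 1 and 1 in cells with 3 or more margin genes. Espn, Vldlr, Rrh and Gpm6b had 1 and 2, and Cox4i2, with the most of those listed, had 6 and 9. A count of 0 was taken as 3 UMIs in a ratio, so absent genes could rank behind genes with 1 or 2. The cells with 3 or more margin genes were deeper than the progenitors, with medians of 16767 and 16160.5 UMIs against 9745 and 9208. With progenitors of 10000 to 30000 UMIs alone the direction held for each gene named here in both libraries. Doublet calls fell on 4 of 16 control and 0 of 22 mutant cells.

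Zic1, a zinc finger transcription factor of the early margin, was, with Gas1, in both the margin list and the 12 genes with the largest ratios above. It was at 332 CPM (90 UMIs) in control and 396 CPM (137 UMIs) in mutant cells with 3 or more margin genes, against 55.1 and 50.03 CPM in progenitors. The ratios were 6.02 (4.80 to 7.48) and 7.91 (6.58 to 9.46). Zic1 transcripts were found in all 16 control cells and 21 of the 22 mutant cells, and in 37.1% and 32.9% of progenitors. They were also found in 4.24% and 3.46% of red cells, which do not make Zic1. Doublet calls fell on 43 of 542 control and 40 of 492 mutant red cells, so free RNA and doublets were not told apart there. Zic1 lies at chr9:91358058-91365810 on the minus strand of GRCm38.

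Retinoic acid genes differed in both directions. Aldh1a1, an enzyme that makes retinoic acid and is known from the dorsal retina, was at 1049.9 CPM in control cells and 595 CPM in mutant cells with 3 or more margin genes, against 49.0 and 60.2 CPM in progenitors. Its ratios were 21.4 (18.7 to 24.5) and 9.89 (8.50 to 11.5). Aldh1a3, the ventral enzyme for the same step, was at 424 and 396 CPM against 154 and 154 CPM, so both enzymes were higher. Rdh10, which makes the retinaldehyde they use, was at 122 and 170 CPM against 22.1 and 25.5 CPM, and Stra6, a membrane channel for retinol, was at 51.6 and 54.9 CPM against 3.69 and 3.43 CPM. In the opposite direction, Cyp26a1, which breaks retinoic acid down, had 0 UMIs in control and 6 in mutant cells, against 77.8 and 76.4 CPM in progenitors. The binding protein gene Crabp1 was at 25.8 and 26.0 CPM against 149 and 120 CPM. Of 13 genes in the retinoic acid list, 9 were compared, 4 were higher and 2 lower in both libraries, beside 2.78% and 4.35% of all genes, and the medians were -0.20 and 0.62.

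The cyclins D1 and D2 differed in opposite directions. Ccnd1, cyclin D1, was at 663 and 913 CPM in cells with 3 or more margin genes against 3825 and 3972 CPM in progenitors, with log2 ratios of -2.53 in the control and -2.12 in the mutant. Ccnd2, cyclin D2, was at 166 and 364 CPM against 16.2 and 15.55 CPM, with log2 ratios of 3.35 and 4.55. Cdkn1c, which encodes the cyclin-dependent kinase inhibitor p57, was at 689 and 1488 CPM against 146 and 107 CPM, ratios of 4.72 (4.05 to 5.48) and 13.9 (12.6 to 15.3). Of 18 S phase genes, all compared, 10 were 2-fold lower in both libraries and 0 higher, with median log2 ratios of -1.03 and -1.29 beside -0.11 and -0.13 over all genes. Pcna, the sliding clamp of replication, was at 88.4 and 86.7 CPM against 229 and 219 CPM. Of 18 G2 and M phase genes, 1 (Mki67) was lower in both libraries, and the medians of -0.28 and -0.81 lay nearer to those of all genes.

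Of 17 retinal progenitor genes, all compared, 9 were 2-fold lower and 1 higher in both libraries, where 4.35% and 2.78% of all genes were. The gene that chose the progenitors is not in this list, but the choice of such cells favours genes found with it, and that part was not tested. The lower genes were Sox2, Hes5, Notch1, Fgf15, Ccnd1, Nr2e1, Fgf9, Fgf3 and Id1, and the higher one was Hmga2, a chromatin protein of young progenitors. Hes5, a target of Notch signals, was at 169 and 63.6 CPM against 686 and 720 CPM, and its 46 control UMIs came from 2 of 16 cells. The eye field factors Lhx2 and Six3 did not pass the fold. Lhx2 was at 254 and 298 CPM against 281 and 278 CPM. Hes6, a gene of the neurogenic list, was lower in both libraries, with log2 ratios of -1.79 and -1.40.

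FGF ligands of the retina were low and Wnt genes were mixed. Fgf15 was at 718 and 428 CPM against 1575 and 1772 CPM, Fgf9 at 29.5 and 43.3 CPM against 168 and 173 CPM, and Fgf3 at 22.1 and 40.5 CPM against 160 and 165 CPM. The feedback phosphatase Dusp6, a readout of ERK signals, was at 18.4 and 8.67 CPM against 55.5 and 57.5 CPM. Of 14 genes of the FGF and ERK feedback list compared, 1 was higher and 4 were lower in both libraries, beside 2.78% and 4.35% of all genes. The list medians were -0.75 and -1.57. The higher gene was the receptor Fgfr2, at 18.4 and 17.3 CPM against 4.62 and 4.77 CPM, on 5 and 6 UMIs.

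Among Wnt genes, the receptors Fzd1, Fzd7 and Ror1 were higher in both libraries, 3 of 14 receptors compared, where 2.78% of all genes were higher. Lef1, the nuclear partner of beta-catenin and itself a Wnt target, was at 58.9 and 40.5 CPM against 7.26 and 8.33 CPM, ratios of 8.12 (4.50 to 13.7) and 4.86 (2.60 to 8.35). Tcf7l2, Nkd1 and Ccnd1 of the same list were lower, so 1 of 6 compared Wnt response genes was higher and 3 were lower, beside 2.78% and 4.35% of all genes. Of 5 Wnt antagonists compared 1, Shisa2, was higher and 0 were lower, with medians of -0.04 and 0.85. Other Wnt inhibitors had too few UMIs to be compared. Notum, an enzyme that strips the lipid from Wnt ligands, had 13 UMIs in 8 of 16 control cells and 21 UMIs in 12 of 22 mutant cells, against 3 UMIs in 1626 and 5 in 2249 progenitors. Nkd2, an inhibitor induced by Wnt signals, had 17 and 19 UMIs in 8 and 13 cells, or 62.6 and 54.9 CPM, against 0.995 and 0.802 CPM. Dkk1, which blocks the Wnt co-receptors, had 8 and 23 UMIs in 3 and 9 cells. These 3 genes had under 50 UMIs in margin cells and progenitors together in at least 1 library, and were left out of the counts of genes. Shisa2, which holds Wnt and FGF receptors inside the cell, was at 210.0 and 234 CPM against 21.2 and 19.6 CPM, ratios of 9.89 (7.34 to 13.1) and 11.9 (9.28 to 15.1). Axin2, the usual Wnt reporter gene, had 1 and 3 UMIs and could not be read.

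Of 4 BMP and TGF-beta ligands compared, 0 were higher and 0 lower in both libraries. Others were found on few molecules. Bmp4 had 13 UMIs in 3 of 16 control cells and 23 UMIs in 9 of 22 mutant cells, and 6 and 10 UMIs in all progenitors. Bmp7 had 8 and 10 UMIs in 6 and 8 cells, or 29.5 and 28.9 CPM, against 0.995 and 0.891 CPM. Neither reached 50 UMIs in margin cells and progenitors of a library, so neither was counted. The Id genes are immediate targets of BMP signals, and Id1, Id2 and Id4 were lower in both libraries while Id3 was at 928 and 988 CPM against 784 and 764 CPM. Id4 was at 7.37 and 8.67 CPM against 98.3 and 92.3 CPM. Of 9 BMP and TGF-beta effectors compared, 0 were higher and 3 lower in both libraries, beside 2.78% and 4.35% of all genes.

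Some matrix genes of the later ciliary body were higher. Of 20 genes in that list 10 were compared, 6 were higher in both libraries and 1, Car2, was lower, beside 2.78% and 4.35% of all genes. Fbn2, a fibrillin of elastic microfibrils, was at 273 and 274 CPM against 69.5 and 64.5 CPM, ratios of 3.92 (3.06 to 4.97) and 4.26 (3.42 to 5.24). Mfap4 and Mfap2, microfibril-associated proteins, were at 151 and 182 CPM against 9.42 and 8.86 CPM and at 217 and 240 CPM against 98.1 and 99.4 CPM. Col9a1, a collagen IX chain laid down by the ciliary epithelium into the vitreous, was at 903 and 870 CPM against 256 and 275 CPM, and Col9a2 and Col2a1 were also higher. The matrix genes Fbn1 and Col9a3 did not pass the fold, with 4 and 2 UMIs and with 1 and 0. The water channel genes Aqp1 and Aqp4, used by the secreting ciliary epithelium, had 0 UMIs but for 1 of Aqp4 in the control. Best2, Ltbp2, Gjb6 and Gjb2 had 0 UMIs in both libraries, which allows up to 11.1 and 8.67 CPM.

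Other members of the margin list and genes of position behaved as follows. Of 25 margin genes outside the rule 19 were compared, and Lef1, Fzd1, Ccnd2, Zic1, Cdon, Meis2 and Gas1 were higher in both libraries, while Sox9 and Tfap2b were lower, 7 and 2 of 19 beside 2.78% and 4.35% of all genes. Gas1 and Cdon, which bind Hedgehog at the cell surface, were at 332 and 474 CPM against 97.4 and 112 CPM and at 125 and 124 CPM against 43.2 and 47.2 CPM. The Hedgehog targets Gli1 and Hhip were lower in both libraries. Cldn1, a tight junction protein, was at 73.7 and 127 CPM against 2.40 and 1.16 CPM, and Cdh6, a cadherin known from the margin, was at 47.9 and 49.1 CPM, on 13 and 17 UMIs, against 1.64 and 1.96 CPM. Of 7 cadherin and junction genes compared, Cldn1 was the 1 higher and Cdh2, N-cadherin, the 1 lower, at 118 and 142 CPM against 327 and 339 CPM, and the list medians were -0.24 and -0.42. Hmx1 and Efna5, which mark position along the nasal and temporal axis, were higher and Epha5 was lower. Crhbp, which encodes a binding protein for corticotropin-releasing hormone, was at 280.0 and 613 CPM against 33.8 and 34.7 CPM.

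**Figure D3:**
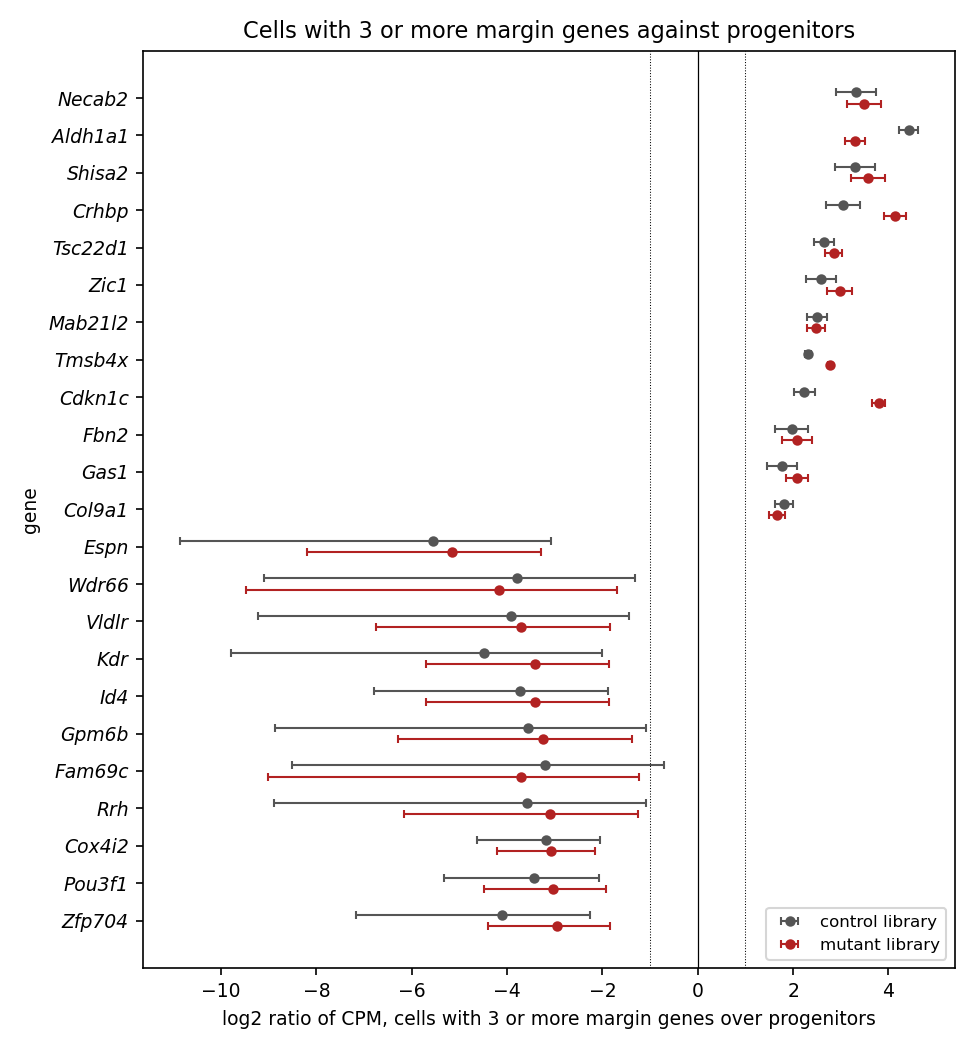
Log2 ratio of CPM in cells with 3 or more margin genes over retinal progenitors (horizontal axis) for 23 of the genes with the largest and the lowest ratios past the minimum of 50 UMIs (vertical axis), with 95% counting intervals. Grey points are the control and red points the mutant library, and dotted lines mark 2-fold, which the points of all 23 genes pass in the same direction in both libraries.

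The promoters of the 12 genes with the largest ratios among those with 50 or more UMIs are shown because these genes were high together. The TCF/LEF motif was searched because Wnt signals act at the margin, although of the Wnt response genes above 1 was higher and 3 were lower. Of the 12 genes, 10 had an entry in the RefSeq promoter table, with 16 promoters in all, and Cdkn1c and Fbn2 had none. The 250 bases before each start were searched on both strands for the TCF/LEF motif, CTTTGAA or CTTTGAT, which was found in 4 of the 16 promoters, 1 each of Aldh1a1, Col9a1, Tmsb4x and Tsc22d1. It was found in 7.48% of the 32851 promoters searched, which had the same length. The motif bound by MYRF, CTGGCAC, was found in 0 of the 16 and in 4.19% of all. A match is a run of letters and not a measured binding site. The windows are chr19:20492333-20492582 on the plus strand for Aldh1a1, chr1:24177360-24177609 on the plus strand for Col9a1, chrX:167209219-167209468 on the minus strand for Tmsb4x and chr14:76414711-76414960 on the plus strand for Tsc22d1 (GRCm38.p6). The sequences read 5′ to 3′ along the gene, with each match in capitals, as its reverse complement where it lies on the opposite strand:
Aldh1a1: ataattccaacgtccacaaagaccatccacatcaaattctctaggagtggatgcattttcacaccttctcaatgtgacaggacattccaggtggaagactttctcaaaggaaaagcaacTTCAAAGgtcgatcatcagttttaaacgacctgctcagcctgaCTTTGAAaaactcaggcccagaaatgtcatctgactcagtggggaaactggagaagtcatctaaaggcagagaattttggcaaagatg
Col9a1: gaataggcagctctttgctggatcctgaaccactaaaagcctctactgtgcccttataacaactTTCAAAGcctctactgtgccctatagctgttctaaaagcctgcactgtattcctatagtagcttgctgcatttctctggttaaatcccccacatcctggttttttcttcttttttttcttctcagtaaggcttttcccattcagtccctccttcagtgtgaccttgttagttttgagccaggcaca
Tmsb4x: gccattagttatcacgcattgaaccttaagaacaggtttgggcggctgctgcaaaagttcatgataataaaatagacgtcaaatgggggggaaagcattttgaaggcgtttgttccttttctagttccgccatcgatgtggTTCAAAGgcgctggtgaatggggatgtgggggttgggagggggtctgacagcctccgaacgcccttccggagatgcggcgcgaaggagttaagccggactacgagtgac
Tsc22d1: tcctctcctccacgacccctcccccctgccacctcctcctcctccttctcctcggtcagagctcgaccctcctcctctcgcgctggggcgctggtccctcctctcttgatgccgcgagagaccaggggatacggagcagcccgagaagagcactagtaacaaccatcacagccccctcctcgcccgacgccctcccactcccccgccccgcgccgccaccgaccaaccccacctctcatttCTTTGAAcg

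Several of these genes were laid out by the number of margin genes found in a cell, as a description. The genes had been picked in cells with 3 or more margin genes, so their levels there were set by the choice. Optic cup cells were grouped by how many of the 5 margin genes had a UMI, from 2456 control and 3373 mutant cells with none to 6 and 10 cells with 4. Zic1 was at 51.1 CPM in control cells with no margin gene, 84.9 with 1, 99.8 with 2, 281 with 3 and 468 with 4. In the mutant the same steps were 44.8, 71.6, 191, 247 and 598 CPM. Gas1 went from 82.7 to 578 CPM in the control and from 94.8 to 774 CPM in the mutant, and Col9a1 from 212 to 1405 and from 231 to 1098 CPM, in each case with most of the difference at 3 and 4 margin genes. With 0, 1 and 2 margin genes control Col9a1 was at 212, 208 and 184 CPM, and after thinning at 206, 270.4 and 472 CPM, so its course there depended on depth. Ccnd1 went the other way, from 3216 to 219 CPM in the control and from 3330 to 429 CPM in the mutant. Hes5 went from 571 to 0 and from 602 to 7.04 CPM. Ccnd2 had no single course: it was at 18.3, 57.0, 243, 204 and 89.7 CPM in control cells with 0 to 4 margin genes, and at 15.99, 59.3, 134, 362 and 331 CPM in mutant cells. Bmp4 had few UMIs and an uneven course: control cells with 0 to 4 margin genes held 12, 17, 10, 0 and 13 of its UMIs, and mutant cells 22, 1, 5, 10 and 13. The step from 1 to 2 margin genes took in the keratin cells, and Krt15 was at 2765 CPM in control and 1671 CPM in mutant cells with 2 margin genes and at 0 in both libraries with 3. After thinning to 2000 UMIs, Zic1 was at 51.9, 117 and 278 CPM in control and 48.0, 97.2 and 412 CPM in mutant cells with 0, 1 and 2 margin genes, and only 2 control and 5 mutant cells had 3.

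**Figure D4:**
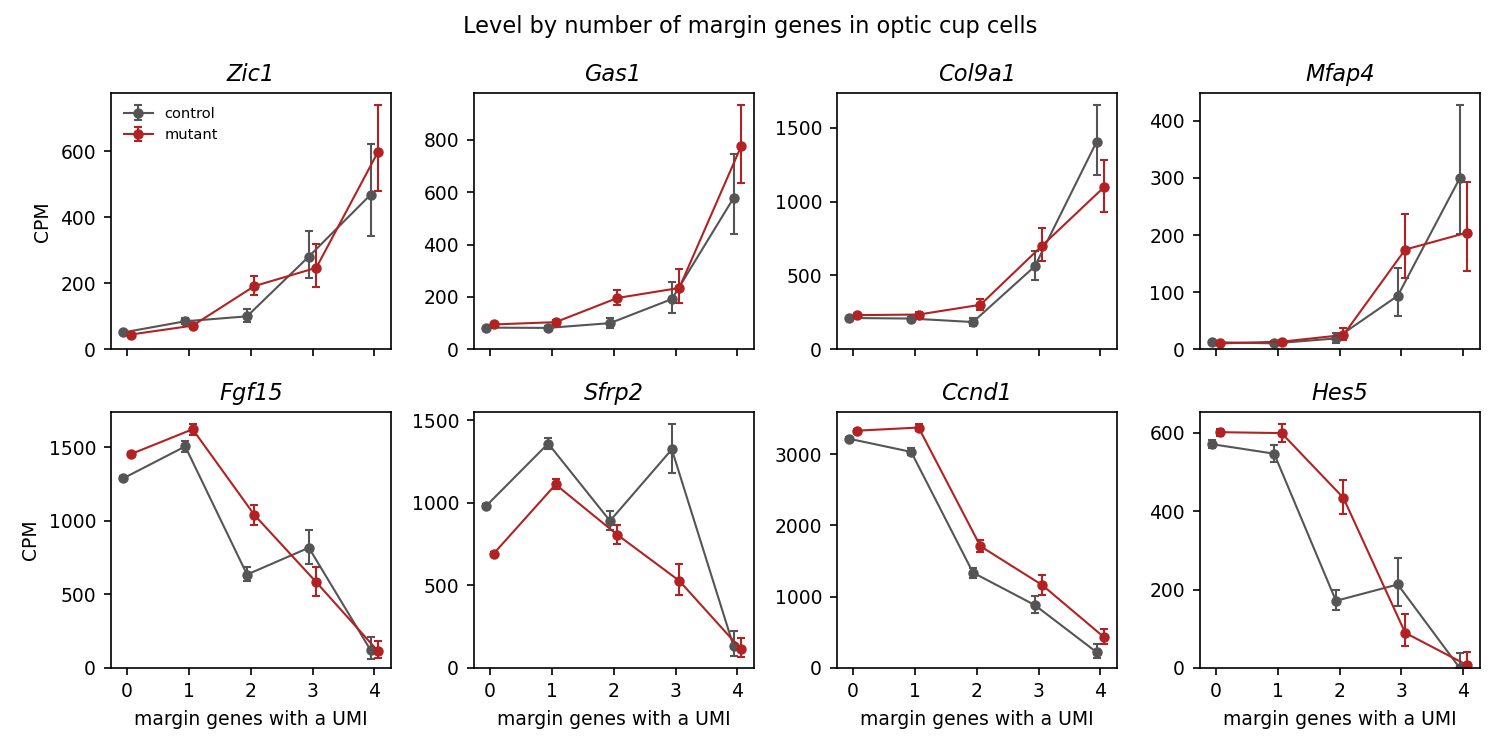
CPM (vertical axes, from 0) of 8 genes in optic cup cells by the number of margin genes with a UMI (horizontal axes), with 95% counting intervals, grey for the control and red for the mutant library. Zic1, Gas1, Col9a1 and Mfap4 were highest in cells with 4 margin genes, and Ccnd1, Fgf15 and Hes5 were lowest there.

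Margin-marker cells were also set beside RPE cells (204 control and 90 mutant), which had been chosen by a Mlana UMI and 5 or more pigment gene UMIs, so lower pigment genes in margin-marker cells were set by the choice of both. Of 6604 genes compared, 353 (5.35%) were 2-fold higher and 471 (7.13%) were 2-fold lower in margin-marker cells of both libraries. Of the 10 pigment and RPE genes compared all 10 were lower, from which nothing is read. Of margin-marker cells, 23 of 74 control and 16 of 86 mutant cells had 5 or more UMIs of the pigment and RPE list. Of 16 retinal progenitor genes compared 12 were higher. In cells with 3 or more margin genes Pmel, the fibril protein of pigment granules, was at 111 and 5.78 CPM, against 8029 and 7905 CPM in RPE, and 30 of its UMIs came from 4 control cells. Mitf, the master regulator of pigment cells, was at 3.68 and 5.78 CPM against 238 and 173 CPM, and Otx2 was at 3.68 CPM and 0 against 435 and 371 CPM. Trpm1, a channel gene that MITF controls in pigment cells, was an exception to the low levels: it had 53 UMIs in 10 of 16 control cells and 27 UMIs in 15 of 22 mutant cells. That is 195 and 78.0 CPM, below the 2301 and 1895 CPM of RPE and above the 3.39 and 2.18 CPM of progenitors. Bmp4 and Bmp7, at 47.9 and 66.5 CPM and at 29.5 and 28.9 CPM in these cells, were at 107 and 91.5 CPM and at 127 and 122 CPM in RPE.

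Between the libraries, margin-marker cells were compared for 6660 genes with 50 or more UMIs in all. In the mutant 389 (5.84%) were at least 1.5-fold higher and 401 (6.02%) at least 1.5-fold lower. Without the 5 richest cells for each gene the counts were 735 and 345. Part of this followed the mixture. The 8 surface epithelium markers summed to 3179 and 1924 CPM, with none at 0. Of 7 compared 5 were lower, among them Krt18 and Krt8 with 286 and 351 control UMIs and 14 and 23 mutant UMIs. The 1 that was higher was Krt5, with 389 control and 624 mutant UMIs. The 6 endothelial markers summed to 493 and 222 CPM, with none at 0. The 7 immune markers were all at 0 in the control and summed to 464.5 CPM in the mutant, with C1qa in 2 cells. The 7 red cell genes, among them Alas2 and the haemoglobins, summed to 11795 and 2062 CPM. In the remaining cells these sums were 48.3 and 52.5 CPM for surface epithelium, 52.3 and 47.9 CPM for endothelium, 0 and 3.42 CPM for immune markers and 278 and 2957 CPM for red cells. The remaining cells were compared for 4656 genes, of which 223 (4.79%) were 1.5-fold higher and 142 (3.05%) were 1.5-fold lower in the mutant.

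Genes were ranked between the libraries only if their interval left out 1 and their 5 richest cells held under 50% of the UMIs in the higher library. A surface epithelium marker with a log2 ratio of -4.25 and 4 immune markers at 5.05 to 5.95 were thus not ranked. Foxd1, a forkhead transcription factor of the temporal side of the retina, showed the largest decrease among the ranked genes. It had 79 UMIs in 23 of 74 control cells and 17 UMIs in 8 of 86 mutant cells, or 57.0 and 13.1 CPM, a ratio of 0.230 (0.128 to 0.392). Among the remaining cells the UMIs were 78 and 16, and in cells with 3 or more margin genes 24 UMIs in 7 of 16 control cells and 4 UMIs in 2 of 22 mutant cells. The log2 ratio was -2.12 in all margin-marker cells, -2.48 in the remaining cells and -0.15 in progenitors, where Foxd1 was at 55.5 and 49.9 CPM. Over the alternatives tried it ranged from -4.37 to -1.35. Most margin-marker cells had no Foxd1 UMI in either library. Foxd1 lies at chr13:98354242-98359305 on the plus strand.

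The other ranked genes with the lowest ratios were Mn1, Tmtc4, Pim3, Atp9a, Zbtb11, Nubpl and Mid1, with log2 ratios from -1.83 to -1.26. Mn1, a transcriptional regulator, had 42 and 11 UMIs in 25 and 11 cells. Mid1, an X-linked ubiquitin ligase gene, had 41 and 16 UMIs and was also lower in mutant progenitors, with a log2 ratio of -0.92. In cells with a Xist UMI and no Y-linked UMI its log2 ratio was 0.052.

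Among the ranked genes with the largest ratios were Lrrn3, Fam210a, Btbd17, Prnp, Efcab11, Fam169a and Col9a2, with log2 ratios from 1.24 to 1.51. Insm1, a zinc finger factor of neurogenic cells, had 17 and 40 UMIs. Of 6 neurogenic genes compared 2 were 1.5-fold higher and 1 was lower in the mutant, beside 5.84% and 6.02% of all genes. Their log2 ratios ran from -1.07 to 1.35. Col9a2 had 35 and 77 UMIs in 26 and 40 cells, a ratio of 2.35 (1.56 to 3.62), and 15 and 31 UMIs in cells with 3 or more margin genes. Lrrn3, a leucine-rich repeat membrane protein, had 23 and 61 UMIs in 15 and 27 cells, and its log2 ratio was -0.29 in cells with a Xist UMI and no Y-linked UMI. Btbd17 had a log2 ratio of -0.17 where 3 or more margin genes were required and -0.20 after thinning. Prnp had a ratio of 1.14 (0.460 to 2.89) in the remaining cells, on 10 and 13 UMIs. There the intervals of Btbd17, Fam210a, Fam169a, Pim3 and Atp9a also included 1.

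**Figure D5:**
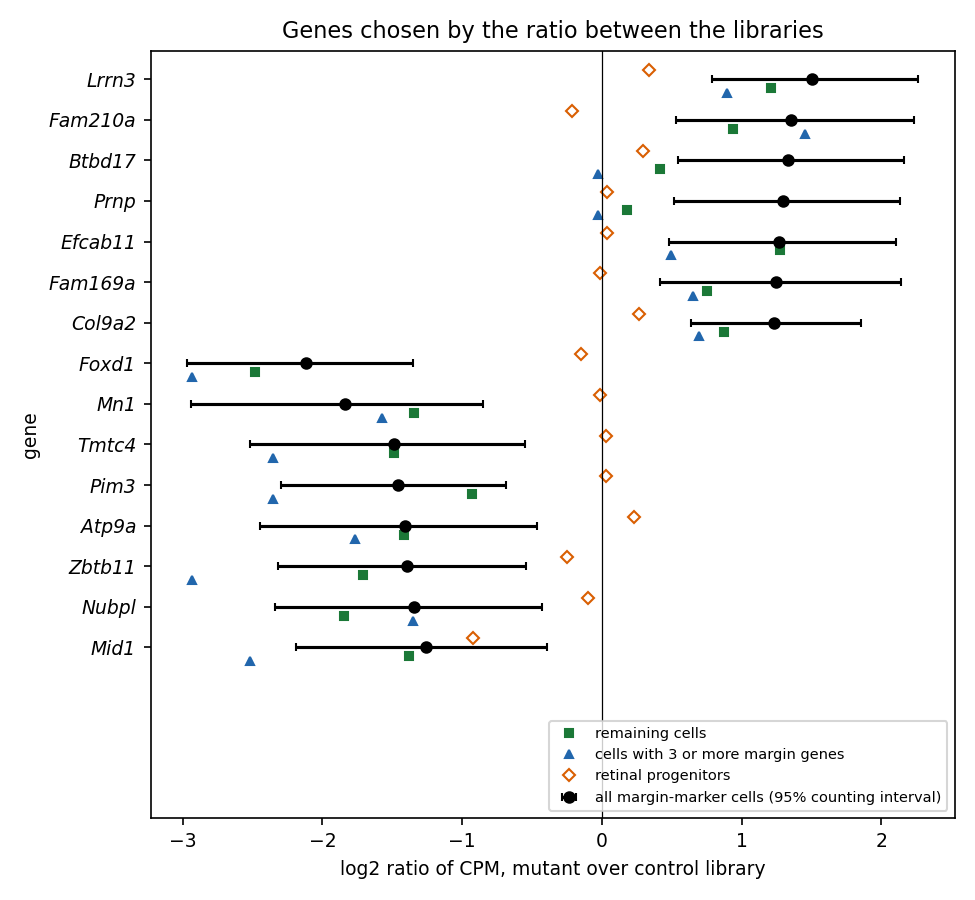
Log2 ratio of CPM, mutant over control library (horizontal axis), for 15 of the genes with the largest and the lowest ratios (vertical axis) in margin-marker cells (black, with 95% counting intervals). Green squares are the remaining cells, blue triangles the cells with 3 or more margin genes and open diamonds retinal progenitors. Foxd1 had ratios of -2.12 in margin-marker cells and -0.15 in progenitors.

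Several genes, picked from those examined, differed between the libraries within the cells with 3 or more margin genes. A Y-linked UMI was found in 0 of these 16 control and 17 of these 22 mutant cells, and doublet calls fell on 4 and 0. The ratios below were not repeated in cells with a Xist UMI and no Y-linked UMI, or without doublet calls. Cdkn1c had 187 and 515 UMIs, a ratio of 2.16 (1.82 to 2.57), while in progenitors its log2 ratio was -0.45. Ccnd2 had 45 and 126 UMIs (ratio 2.20, 1.55 to 3.16), and Crhbp had 76 and 212 (ratio 2.19, 1.68 to 2.88). Aldh1a1 was lower in the mutant, with 285 and 206 UMIs and a ratio of 0.567 (0.472 to 0.681). Sfrp2, a secreted Wnt inhibitor, was lower too, at 312 and 139 UMIs and a ratio of 0.349 (0.284 to 0.428), while over all margin-marker cells its log2 ratio was -0.42 and in progenitors -0.53. For Zic1 the ratio was 1.19 (0.909 to 1.58), for Col9a1 0.964 (0.811 to 1.15), for Mab21l2 0.970 (0.804 to 1.17) and for Shisa2 1.11 (0.785 to 1.59), intervals that include 1. The ratios rest on 16 and 22 cells of 1 pool each, and whether they exceed the difference between embryos of 1 genotype cannot be told from these libraries.

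The lists differed in how many genes passed the fold between the libraries, beside 5.84% higher and 6.02% lower over all genes. Of 7 surface epithelium markers compared 1 was higher and 5 lower, of 4 immune markers 4 were higher, and of 4 red cell genes 4 were lower, the lists whose UMIs lay mostly in few cells. Of 9 cadherin and junction genes 2 were higher and 2 lower. Of 18 margin genes compared in all margin-marker cells, 3 were 1.5-fold higher (Zic1, Zic2 and Gas1) and 1, Wls, was lower, with a median log2 ratio of 0.18 beside 0.01 over all genes and 0.09 for the same margin genes in progenitors. In the remaining cells the ratio of Zic1 was 1.24 (1.01 to 1.52), that of Zic2 1.22 (0.866 to 1.72) and that of Gas1 1.53 (1.24 to 1.89), so the first 2 no longer passed the fold. Wls, which carries Wnt ligands to the cell surface, had 112 and 46 UMIs, of which 4 and 1 lay in the remaining cells. Of 17 S phase genes 2 were lower and 0 higher, and of 18 G2 and M phase genes 0 passed the fold. Of 16 retinal progenitor genes 1, Hes5, was higher, with 230 and 421 UMIs, and in cells with 3 or more margin genes it was lower, with 46 and 22. Of the 7 genes linked to MYRF, Tmem98, which encodes a membrane protein that binds MYRF, was the 1 compared, and its log2 ratio was 0.20. In the remaining cells it had 11 and 23 UMIs, a ratio of 1.83 (0.855 to 4.15).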

How the data were processed

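Eye cups of e15.5 mouse embryos, 3 pooled per library, were profiled with 10x 3′ single-cell RNA-seq in 1 control and 1 mutant library. The authors deposited UMI counts per gene and barcode. The submitters' processing notes name Cell Ranger 7.1.0, Seurat 4.1.1 and mm10, while the matrix header names another software version, so the version that made the counts is uncertain. Of 13017 control and 13880 mutant barcodes, 9722 and 10708 passed the limits of 200 genes, 2000 UMIs and 15% mitochondrial UMIs. The study's upper limit of 2000 UMIs would leave no margin-marker cell and was not applied.

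The margin-marker cells and the gene lists were chosen with earlier results of these data known, and the keratin, vessel or immune, Pax2 and remaining sets after the values were seen. Counts were summed per library and set and scaled to CPM, with exact Poisson intervals. Ratios have exact conditional binomial intervals and shares Clopper-Pearson intervals, at 95%. A count of 0 was bounded by 3 UMIs, and was set to 3 UMIs in a ratio. Intervals cover counting error only, and with 1 library per genotype no test was made and no p-value is given. A gene was called at 1.5-fold between libraries (50 UMIs over both) and at 2-fold in both libraries between cell classes (50 UMIs in each).

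Named genes were list members by role, the 8 largest and 8 smallest ratios between libraries whose interval left out 1 and whose 5 richest cells held under 50% of the UMIs in the library with the higher level, and the 12 largest and 12 lowest against progenitors in both libraries, with 50 or more UMIs per library in the cells described for the first and in progenitors for the second. Rule, Y-linked, haemoglobin, mitochondrial and ribosomal protein genes, Xist and unnamed gene models were left out of that choice. Some genes that met it are not reported here. Doublets were scored with Scrublet in scanpy 1.11.5. Its automatic threshold marked 366 control and 0 mutant barcodes, so the highest scores were called at an expected rate instead, 1114 and 1353 barcodes. Called cells were kept. Cells were thinned to 2000 UMIs with seed 1. The scripts used Python 3.11.15, numpy 2.4.6, pandas 2.3.3, scipy 1.17.1 and matplotlib 3.10.9, and were tested on simulated data. Alternatives changed the limits on UMIs, mitochondrial share, collagen and margin genes, the minimum count of a gene, and the cells included.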

Additional observations from a re-analysis of the deposited data

Results flagged for a closer look

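A Y-linked UMI was found in 59.3% of mutant margin-marker cells (51 of 86) and in 1.35% of control cells (1 of 74). Y-linked genes were left out of the choice of named genes, but not out of the counts of genes compared. A Xist UMI was found in 39.5% and 94.6%. The part of this difference between the pools in the ratios between the libraries was not tested beyond the cells with a Xist UMI and no Y-linked UMI, where Lrrn3 and Mid1 changed direction.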

How the results depend on the processing

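No paired analysis was possible because there is 1 library per genotype, and for the same reason no replicate could be left out. The share ratios moved by less than their intervals, over 0.975 to 1.21 of all cells and 0.790 to 1.03 of optic cup cells. The ratio between libraries reversed for Btbd17 (-0.17 with 3 or more margin genes required, -0.20 after thinning), Hes5 (-1.35 and -1.05), Lrrn3 (-0.29) and Mid1 (0.052) in cells with a Xist UMI and no Y-linked UMI. Against progenitors in the mutant it reversed for Shank2 (0.071 after thinning) and for Hspb1 (-0.28 without keratin, vessel or immune, and Pax2 cells). The cause was not tested.

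Counts of genes moved with the cells and the minimum used. Between libraries, higher and lower, they were 258 and 176 without cells over 20000 UMIs, 121 and 154 with 3 or more margin genes, 121 and 162 after thinning, 223 and 142 without the keratin, vessel or immune, and Pax2 cells, 933 and 941 at 20 UMIs, and 1813 and 1770 at 4 UMIs. Without the 5 richest cells of each gene 735 were higher and 345 lower. Against progenitors the higher count was 279 without cells over 20000 UMIs, 267 with no Col1a2 or Col3a1, 257 at 5% mitochondrial UMIs, 232 in Xist cells, 203 after thinning, 169 without keratin, vessel or immune, and Pax2 cells, 774 at 20 UMIs and 1292 at 4. The lower count was 417 with 3 or more margin genes and 396 after thinning. For cells with 3 or more margin genes the counts were 167 and 160 in Xist cells, and 552 were higher at 4 UMIs. Against RPE, 117 were higher with 3 or more margin genes, and the higher and lower counts were 193 and 238 with no Col1a2 or Col3a1, 165 and 170 at 5% mitochondrial UMIs, 119 and 216 in Xist cells, 103 and 277 after thinning, 647 and 718 at 20 UMIs, and 1149 and 976 at 4 UMIs. The removal of the keratin, vessel or immune, and Pax2 cells or of haemoglobin-rich cells, and the choice of deeper progenitors, were added after seeing the data.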

Other observations

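The 6 control and 11 mutant cells of the Pax2 set all had a Zic1 UMI, at 423 and 454 CPM, above the 332 and 396 CPM of the cells with 3 or more margin genes. Pax2 was at 286 and 416 CPM there and at 0 in the cells with 3 or more margin genes. The set was chosen after its Pax2 values were seen. In the mutant, 525 of the 547 Hba-a1 UMIs of margin-marker cells lay in cells with 2 margin genes, and in the control 2049 of 2084 lay in keratin cells.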
